A study of Mus musculus with 10 samples.

Results

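The RNA levels of 34 endothelial, lymphatic and angiogenic genes were examined in inguinal white adipose tissue (iWAT), the subcutaneous fat depot of the groin, in mice whose fathers, or who themselves, had been fed a low-protein diet (LPD). The 34 genes were chosen by name, 34 of the 51826 genes listed in the deposited files, and all 34 were among the 33120 genes with an exon length and passed the filter on low counts in every comparison. All mice were C57BL/6 males. In the F0 generation, 2 males fed the control diet (CD) and 2 fed LPD after weaning were sampled at 10 to 12 weeks of age. In the F1 generation, 3 sons of CD-fed fathers (F1 CD) and 3 sons of LPD-fed fathers (paternal LPD, F1 pLPD) were sampled at 5 weeks, and their mothers were fed CD. Each library came from 1 mouse, and in F1 the mice of a group had different mothers. The study asked whether the diet of the father alters gene expression in the fat of his sons, and whether any such change resembles that in the LPD-fed males.

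White fat is crossed by a dense capillary bed. Endothelial cells line these vessels, are joined to each other by VE-cadherin (Cdh5), PECAM-1 and claudin-5, and produce nitric oxide through endothelial nitric oxide synthase (Nos3). Vascular endothelial growth factors (VEGFs), which adipocytes also secrete, act on the receptors Kdr and Flt1 of blood endothelium and on Flt4 of lymphatic endothelium, angiopoietins act on the receptor Tek, and Dll4, Notch4, Efnb2 and Ephb4 set arterial and venous identity. In whole tissue, fewer endothelial cells and less RNA per endothelial cell cannot be told apart.

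Exon reads per library lay between 6351075 and 10044546, so that 3 reads, the limit that a count of 0 allows, were worth 0.299 to 0.472 CPM (exon reads scaled to a common library size), a bound that covers counting error only. The 34 genes together took 0.168% to 0.219% of the exon reads. The share of gene reads lying in introns was 36.0% to 38.0% in the F0 mice and the F1 CD mice, and 40.7% to 48.4% in the F1 pLPD mice, and the share on mitochondrial rRNA was 9.29% to 10.5% in F1 CD and 13.5% to 18.2% in F1 pLPD. Levels below are CPM scaled by TMM over all 10 libraries, fold changes are log2 values from edgeR given ± SE, and p-values are adjusted over all genes tested (Benjamini-Hochberg) with a threshold of 0.05.

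The promoters of 4 of the genes are shown because they represent the arterial (Dll4), venous (Ephb4), angiopoietin receptor (Tek) and VEGF receptor (Flt1) members, and because the RefSeq start and the gene start in the deposited files coincide there. Each is the 250 bases before the start in GRCm38.p6, 5′ to 3′ in the direction of the gene, at chr2:119325534-119325783 on the plus strand, chr5:137349859-137350108 on the plus strand, chr4:94739039-94739288 on the plus strand and chr5:147726012-147726261 on the minus strand. Capitals mark CNGGAAG, the core bound by ETS factors such as Erg, or AACAAT, a core bound by SOX factors such as Sox17 and Sox18, on either strand.
Dll4: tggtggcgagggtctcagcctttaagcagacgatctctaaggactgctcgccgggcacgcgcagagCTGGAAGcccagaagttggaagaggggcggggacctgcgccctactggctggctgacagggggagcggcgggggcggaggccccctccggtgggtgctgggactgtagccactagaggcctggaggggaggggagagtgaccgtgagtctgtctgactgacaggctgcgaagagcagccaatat
Ephb4: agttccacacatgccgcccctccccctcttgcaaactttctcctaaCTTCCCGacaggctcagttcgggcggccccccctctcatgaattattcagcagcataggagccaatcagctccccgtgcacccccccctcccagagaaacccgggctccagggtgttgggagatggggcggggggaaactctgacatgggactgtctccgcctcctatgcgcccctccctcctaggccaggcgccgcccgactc
Tek: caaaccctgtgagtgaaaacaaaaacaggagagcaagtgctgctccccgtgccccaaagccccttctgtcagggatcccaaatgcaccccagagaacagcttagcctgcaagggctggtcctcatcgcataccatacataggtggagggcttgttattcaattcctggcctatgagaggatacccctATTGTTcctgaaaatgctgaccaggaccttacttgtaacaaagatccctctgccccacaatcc
Flt1: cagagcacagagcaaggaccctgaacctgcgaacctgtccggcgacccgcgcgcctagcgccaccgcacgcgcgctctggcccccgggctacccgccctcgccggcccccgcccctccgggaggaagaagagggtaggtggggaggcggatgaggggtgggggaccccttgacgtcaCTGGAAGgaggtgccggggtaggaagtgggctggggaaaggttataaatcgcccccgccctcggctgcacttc
CNGGAAG was present in 26.6% of all 32851 RefSeq promoter windows of this length and in 14 of the 29 windows of the 23 members with an entry (48.3%), which belonged to 12 genes: Dll4, Egfl7, Emcn, Ephb4, Erg, Flt1, Flt4, Notch4, Nrp1, Prox1, Robo4 and Tie1. AACAAT was present in 9.42% of all windows and in those of 4 members, Emcn, Erg, Mmrn1 and Tek. Neither motif contains the other, and a match describes the letters only.

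The 34 genes differed widely in level per exon length. On the deposited RPKM scale (exon reads divided by exon length and library total), averaged over the 10 mice, the ligands Vegfb (30.0) and Vegfa (27.5) were highest, followed by Pecam1 (18.9) and Cdh5 (18.0). The ranges over mice of Vegfb and Vegfa overlapped, as did those of Pecam1 and Cdh5. At the other end were the lymphatic receptor Flt4 (0.789), the lymphatic transcription factor Prox1 (0.462), the lymphatic matrix protein Mmrn1 (0.377) and the ligand Vegfc (0.344). Vegfc rested on 10 to 22 exon reads per library, and 92.4% of its gene reads lay in introns, so its level was close to the limit of detection. The defining markers Pecam1 and Cdh5 had at least 994 and 826 exon reads in every library.

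**Figure D1:**
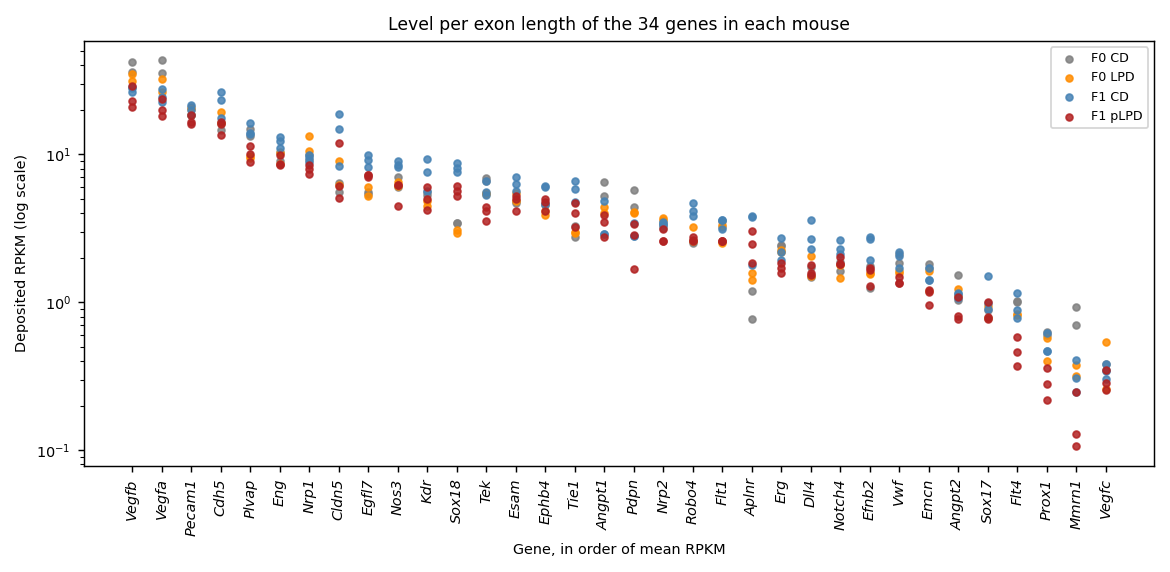
Deposited RPKM (vertical axis, log scale) of the 34 genes in order of their mean over 10 mice, 1 point per mouse, coloured by group. Vegfb and Vegfa lie at the top with means of 30.0 and 27.5, and Prox1, Mmrn1 and Vegfc at the bottom with means under 0.5.

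In the sons of LPD-fed fathers, 33 of the 34 genes had a log2 fold change below 0 relative to the sons of CD-fed fathers, against 48.6% of all 14049 genes tested, and the exception was Angpt1 (0.08). The median over the 34 genes was -0.27 with quartiles of -0.39 and -0.14, beside a median of 0.01 over all genes. None of the 34 passed the test (edgeR quasi-likelihood, Benjamini-Hochberg), whereas 1.17% of all genes did. At an unadjusted p under 0.05, 14 of the 34 were lower and 0 higher, beside 8.76% lower and 6.57% higher of all genes, and DESeq2 called 3 of the 34 (Flt4, Nos3 and Robo4) and limma on log2 RPKM 0. Under every alternative count, scaling and omitted mouse, 31 to 34 of the genes were below 0. In 14 of the 34, every pLPD mouse lay below every CD mouse, as in 10.9% of all genes, and the reverse held for 0 of the 34 and 9.21% of all genes. The median over the 34 genes of the log2 level relative to each gene's mean over the 6 F1 mice was 0.14, 0.28 and 0.0093 in the CD mice. In the pLPD mice it was -0.090, -0.18 and -0.17. The third CD mouse was the lowest of its group in 20 of the 34 genes and the second the highest in 22, and without the third CD mouse 5 of the 34 passed the threshold (Cdh5, Efnb2, Flt4, Nos3 and Robo4). With the share of reads on exons as a covariate the median was -0.31 and 0 of the 34 passed. That share was lower in every pLPD mouse than in every F1 CD mouse, so this fit cannot separate it from the paternal diet.

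In the LPD-fed males of F0, 18 of the 34 genes were below 0 and 16 above, with a median of -0.05, beside 49.9% of all 14581 genes below 0. Plvap and Mmrn1 fell, 2 of the 34, where 2.5% of all genes were called, 1.32% as lower and 1.18% as higher. At an unadjusted p under 0.05, 6 of the 34 were lower and 4 higher, beside 8.2% and 7.53% of all genes. Without overlap between the groups, 14 of the 34 were lower and 7 higher, beside 23.6% and 22.8% of all genes. The difference between the diet effects of the generations was below 0 in 27 of the 34 genes, beside 50.4% of all genes, with a median of -0.23. It passed the test for 1 gene, Robo4, where 1.25% of all genes did, 0.893% below 0 and 0.357% above. At an unadjusted p under 0.05 it was below 0 in 8 of the 34 and above in 0, beside 7.58% and 4.91% of all genes.

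**Figure D2:**
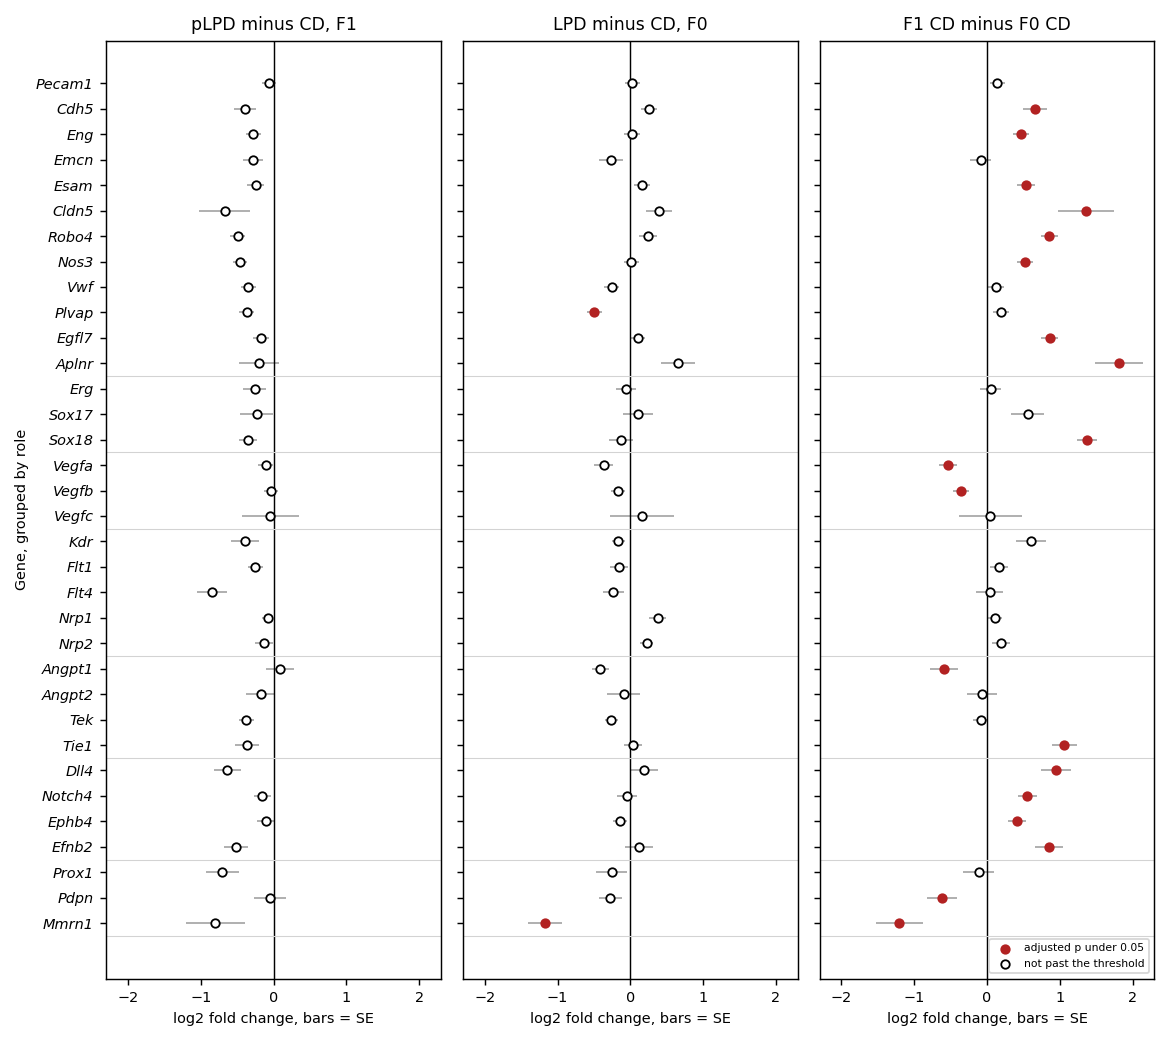
Log2 fold changes (horizontal axis, bars are SE) of the 34 genes, grouped by role, for F1 pLPD minus CD, F0 LPD minus CD and F1 CD minus F0 CD. In F1 33 of the 34 points lie left of 0 and none is filled, in F0 the points lie on both sides of 0 with Plvap and Mmrn1 filled (adjusted p under 0.05), and between the CD groups 14 filled points lie to the right and 5 to the left.

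In F1 CD relative to F0 CD, 19 of the 34 were called, 14 higher and 5 lower, where 18.9% of all 15111 genes were called, 10.1% higher and 8.78% lower. The 14 were 8 surface and junction genes, Sox18, Tie1 and all 4 arteriovenous genes, and the 5 were Vegfa, Vegfb, Angpt1, Pdpn and Mmrn1. Without overlap, 18 were higher and 5 lower, beside 25.2% and 24.7% of all genes. Age, generation and the set of libraries coincide in this comparison and cannot be told apart, and it shares the CD mice with both diet comparisons. Without the second F0 CD mouse 4 of the 34 were past the threshold, and with limma on log2 RPKM 9 were. Markers of other cells differed as well: all 15 skeletal muscle genes fell, with sums of 1944 to 3040 CPM in F0 CD and 119 to 227 in F1 CD, and 5 of 12 adipocyte genes fell, with sums of 26634 to 28098 CPM in F0 CD and 20035 to 23969 in F1 CD. Their part in the result was not tested.

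**Figure D3:**
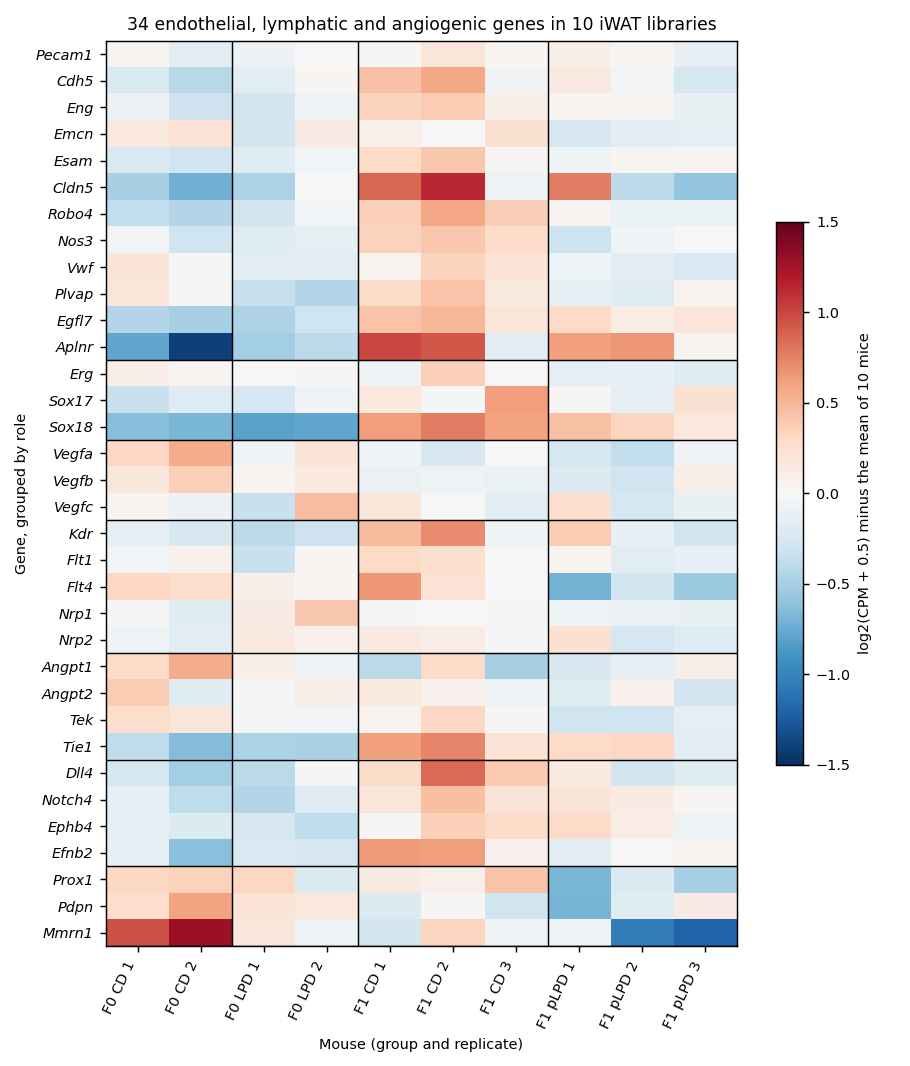
Level of each of the 34 genes (vertical, grouped by role) in each of the 10 mice (horizontal), as log2(CPM + 0.5) minus the gene's mean over the 10 mice, red above and blue below the mean. The blood endothelial genes are mostly red in the F1 CD mice, and Mmrn1 runs from red in F0 CD to blue in pLPD mice 2 and 3.

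Among blood endothelial surface and junction genes, Robo4 gave the smallest p-value in F1. Robo4, a guidance receptor that stabilises vessels, was at 26.3 and 25.0 CPM in the F0 CD mice, 27.5 and 33.1 in the F0 LPD mice, 43.7, 51.2 and 44.2 in the F1 CD mice and 34.9, 31.7 and 31.6 in the F1 pLPD mice. In F1 the groups did not overlap and all pLPD mice were lower (log2 fold change -0.49 ± 0.11, adjusted p = 0.0512), while in F0 both LPD mice were higher (log2 fold change 0.24 ± 0.12, adjusted p = 0.411). The difference between these effects was -0.74 ± 0.17 (adjusted p = 0.0499), just inside the threshold. Of 8 alternative settings with all mice kept, 4 kept this call (adjusted p-values up to 0.0896). The call was kept without the first F0 LPD, the third F1 CD or the first pLPD mouse and lost without any of the other 7 (adjusted p-values from 0.0768 to 0.275), and it was lost with DESeq2 size factors (0.0518). Robo4 was higher in F1 CD than in F0 CD (log2 fold change 0.86 ± 0.12, adjusted p = 0.000371).

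Nos3, the nitric oxide synthase of endothelium, was at 73.4, 76.5 and 70.2 CPM in the F1 CD mice and 46.3, 54.8 and 57.3 in the F1 pLPD mice. Every pLPD mouse was below every CD mouse (log2 fold change -0.46 ± 0.10, adjusted p = 0.0512). In F0 its levels were 55.7 and 46.5 CPM with CD and 50.5 and 52.4 with LPD, which overlapped (log2 fold change 0.01 ± 0.11, adjusted p = 0.975). With uniquely matching reads, 86.8% of its exon reads, the F1 change was -0.42 with an adjusted p of 0.0653, and Atg9b and the antisense gene Gm15587 overlap it. Over 10 alternative settings with all mice kept, the F1 change of Nos3 ran from -0.62 to -0.20. It was called in 5 of the 10, with adjusted p-values up to 0.74. The difference between generations was -0.49 ± 0.15 (adjusted p = 0.169).

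Plvap forms the diaphragms of fenestrated capillaries. Its levels were 56.1 and 49.9 CPM in the F0 CD mice, 38.8 and 36.3 in the F0 LPD mice, 60.0, 66.4 and 54.5 in the F1 CD mice and 44.8, 43.1 and 51.2 in the F1 pLPD mice. It fell in F0 (log2 fold change -0.49 ± 0.10, adjusted p = 0.0427), and all 3 pLPD mice of F1 were also below all 3 CD mice (log2 fold change -0.37 ± 0.11, adjusted p = 0.124). The F1 effect minus the F0 effect was 0.11 ± 0.16 (adjusted p = 0.846). The F0 call was lost with DESeq2 (adjusted p = 0.139) and without any single mouse (adjusted p-values from 0.0579 to 0.203), and 79.3% of Plvap exon reads matched uniquely, Gtpbp3 lying on the other strand.

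Cdh5, the cadherin of endothelial junctions, was at 132 and 116 CPM in the F0 CD mice, 137 and 158 in the F0 LPD mice, 209.8, 231 and 149 in the F1 CD mice and 169, 149.8 and 129 in the F1 pLPD mice. The third F1 CD mouse was at the level of the pLPD mice, and the groups overlapped (log2 fold change -0.39 ± 0.15, adjusted p = 0.253). In F0 both LPD mice were higher (log2 fold change 0.25 ± 0.11, adjusted p = 0.287), and the difference between generations was -0.65 ± 0.23 (adjusted p = 0.231). Cldn5, the tight-junction claudin of endothelium, had 45.4, 54.5 and 23.5 CPM in the F1 CD mice and 42.5, 18.7 and 16.2 in the F1 pLPD mice, so that the range within each group was larger than the difference of the means (log2 fold change -0.67 ± 0.35, adjusted p = 0.392). In F0 it was at 17.3 and 14.9 CPM with CD and 17.6 and 24.6 with LPD. Both genes were higher in F1 CD than in F0 CD, Cdh5 by 0.66 ± 0.17 (adjusted p = 0.0143) and Cldn5 by 1.36 ± 0.39 (adjusted p = 0.0273).

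Eng, a coreceptor for TGF-beta ligands on endothelium, was at 79.9 and 68.2 CPM in the F0 CD mice, 70.0 and 80.4 in the F0 LPD mice, 107, 110.2 and 89.9 in the F1 CD mice and 86.7, 86.1 and 78.4 in the F1 pLPD mice. Its F1 groups came close without overlap, with all pLPD mice lower (log2 fold change -0.28 ± 0.10, adjusted p = 0.208), and it was higher in F1 CD than in F0 CD (log2 fold change 0.47 ± 0.11, adjusted p = 0.0113). Esam, an adhesion molecule of endothelial tight junctions, was at 26.6 and 25.2 CPM in the F0 CD mice, 27.6 and 30.4 in the F0 LPD mice, 38.7, 41.5 and 32.2 in the F1 CD mice and 29.8, 32.2 and 32.1 in the F1 pLPD mice. Its F1 difference was -0.25 ± 0.12 (adjusted p = 0.349) with overlapping groups, and in F0 both LPD mice were higher without passing the test (0.16 ± 0.11, adjusted p = 0.56). The generations differed by 0.53 ± 0.12 (adjusted p = 0.00831) between the CD groups.

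Egfl7, a secreted regulator of vessel tube formation, and Aplnr, the receptor for apelin, were called between the CD groups and in neither diet comparison. Egfl7 was at 33.4 and 32.0 CPM in the F0 CD mice, 33.0 and 37.0 in the F0 LPD mice, 61.6, 64.7 and 51.7 in the F1 CD mice and 56.0, 49.4 and 51.7 in the F1 pLPD mice, higher in F1 CD than in F0 CD by 0.86 ± 0.11 (adjusted p = 0.000284) and different between the F1 groups by -0.17 ± 0.11 (adjusted p = 0.483). Only 59.6% of its exon reads matched uniquely. Gm20532 and Mir126a overlap it on its strand, and the protein-coding gene Agpat2 and Mir126b on the other strand. Aplnr was at 8.49 and 5.39 CPM in the F0 CD mice, 10.4 and 11.3 in the F0 LPD mice, 30.4, 29.0 and 13.3 in the F1 CD mice and 23.2, 24.1 and 15.4 in the F1 pLPD mice, with the third F1 CD mouse at less than the lowest pLPD mouse. The CD groups differed by 1.82 ± 0.33 (adjusted p = 0.00242), the largest difference of the 34 genes, and in F0 the LPD mice were higher by 0.65 ± 0.23 (adjusted p = 0.206).

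Of the remaining surface genes, Pecam1, the classical endothelial marker, varied between 149.8 and 191 CPM over the 10 mice and its groups overlapped in both generations (F1 -0.07 ± 0.09, adjusted p = 0.79; F0 0.03 ± 0.10, adjusted p = 0.942). Vwf, the clotting factor stored in endothelium, was 59.3, 72.1 and 66.2 CPM in F1 CD and 54.4, 51.0 and 48.6 in pLPD, without overlap (log2 fold change -0.35 ± 0.10, adjusted p = 0.124), and in F0 it differed by -0.26 ± 0.10 (adjusted p = 0.255). Emcn, a sialomucin of venous and capillary endothelium, had log2 fold changes of -0.28 ± 0.14 (adjusted p = 0.373) in F1 and -0.27 ± 0.16 (adjusted p = 0.497) in F0.

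**Figure D4:**
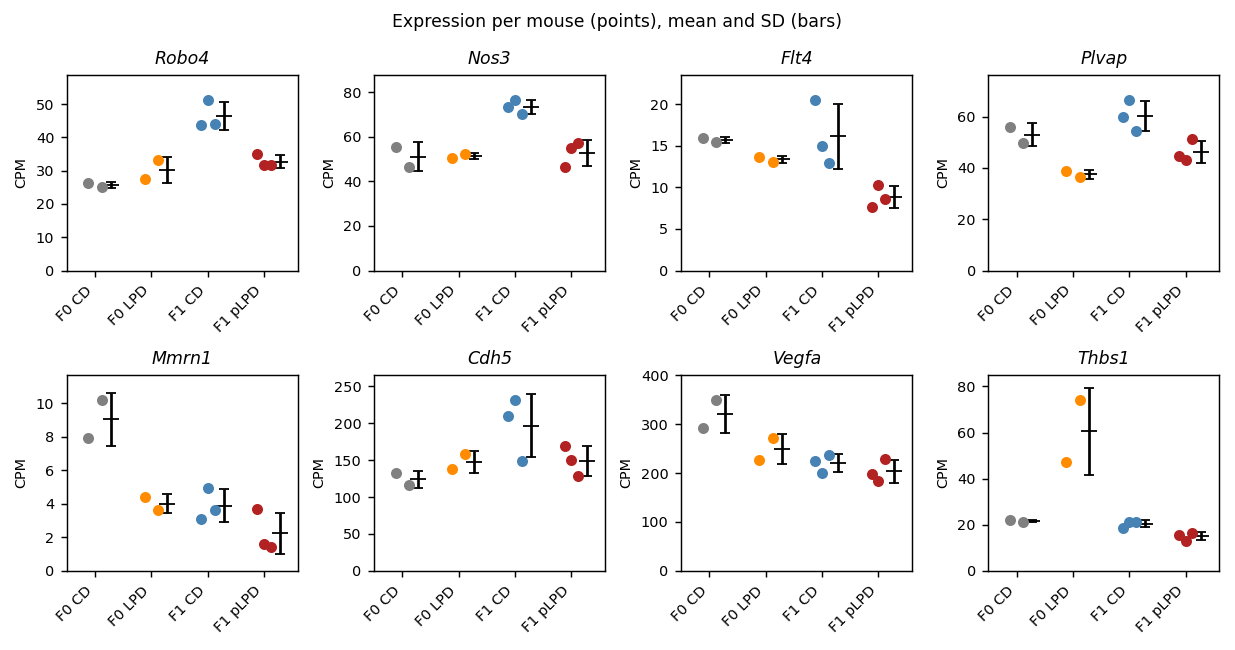
CPM of Robo4, Nos3, Flt4, Plvap, Mmrn1, Cdh5, Vegfa and the angiogenesis inhibitor Thbs1 in each mouse (points) of the 4 groups, with the mean and SD (bars). The pLPD points of Robo4, Nos3, Flt4 and Plvap lie below all F1 CD points, and the LPD points of Thbs1 lie above all other mice.

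Of the transcription factors, Sox18, which acts in vessel and lymphatic development, separated the generations. It was at 10.7 and 10.4 CPM in the F0 CD mice, 9.55 and 9.69 in the F0 LPD mice, 26.5, 29.4 and 26.2 in the F1 CD mice and 23.2, 21.4 and 19.0 in the F1 pLPD mice, and was higher in F1 CD than in F0 CD (log2 fold change 1.38 ± 0.13, adjusted p = 2.63e-05). All pLPD mice were below all F1 CD mice (log2 fold change -0.36 ± 0.12, adjusted p = 0.197). Erg, an ETS factor that maintains endothelial identity, was at 14.4, 19.5 and 15.2 CPM in F1 CD and 13.8, 13.8 and 13.2 in pLPD (log2 fold change -0.26 ± 0.16, adjusted p = 0.476), groups that did not overlap. Sox17, an arterial SOX factor, ranged from 6.48 to 13.0 CPM with overlapping diet groups.

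The VEGF ligands had the F1 median nearest to 0 of the 7 role groups, -0.05. Vegfa, the main angiogenic ligand, was at 293 and 349 CPM in the F0 CD mice, 227 and 271 in the F0 LPD mice, 226, 201 and 236 in the F1 CD mice and 198, 184 and 229 in the F1 pLPD mice. The F1 groups overlapped (log2 fold change -0.11 ± 0.10, adjusted p = 0.645), and in F0 both LPD mice were below both CD mice without passing the test (log2 fold change -0.37 ± 0.13, adjusted p = 0.19). Vegfb, a ligand of Flt1, was at 111 and 126 CPM in the F0 CD mice, 101 and 109 in the F0 LPD mice, 91.6, 93.4 and 91.7 in the F1 CD mice and 84.4, 79.6 and 104 in the F1 pLPD mice, with a difference of -0.04 ± 0.10 (adjusted p = 0.901) in F1 and -0.17 ± 0.10 (adjusted p = 0.449) in F0. Both ligands were lower in F1 CD than in F0 CD, with log2 fold changes of -0.54 ± 0.12 (adjusted p = 0.00815) for Vegfa and -0.36 ± 0.11 (adjusted p = 0.035) for Vegfb. Vegfc, the ligand of lymphatic growth, stayed between 1.26 and 2.57 CPM in all 10 mice, at 1.79 and 1.60, 1.26 and 2.57, 2.02, 1.73 and 1.48 and 2.14, 1.35 and 1.56 in the F0 CD, F0 LPD, F1 CD and F1 pLPD mice, and no difference was detectable at this depth.

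Among the receptors, Flt4, which binds Vegfc on lymphatic endothelium, had the largest F1 difference of the 34 genes. It was at 16.0 and 15.5 CPM in the F0 CD mice, 13.6 and 13.1 in the F0 LPD mice, 20.5, 15.0 and 12.9 in the F1 CD mice and 7.64, 10.3 and 8.56 in the F1 pLPD mice. No pLPD mouse reached the lowest CD mouse, and the level was 0.55 times that of CD (log2 fold change -0.85 ± 0.21, adjusted p = 0.0736). In F0 both LPD mice were slightly lower (log2 fold change -0.23 ± 0.14, adjusted p = 0.49), and the F1 effect minus the F0 effect was -0.63 ± 0.27 (adjusted p = 0.358). Nrp1, a VEGF coreceptor, was at 187 and 167 CPM in the F0 CD mice, 207 and 253 in the F0 LPD mice, 188, 190.0 and 193 in the F1 CD mice and 181, 179 and 176 in the F1 pLPD mice. Its F0 levels were higher with LPD (log2 fold change 0.38 ± 0.12, adjusted p = 0.147), its F1 levels were within a narrow range (log2 fold change -0.08 ± 0.08, adjusted p = 0.663), and the difference between generations was -0.47 ± 0.14 (adjusted p = 0.127). Kdr, the main signalling receptor for Vegfa, ranged over 148, 173 and 101 CPM in F1 CD and 137, 96.8 and 86.1 in pLPD, with overlap (log2 fold change -0.39 ± 0.20, adjusted p = 0.377). Flt1, a VEGF receptor that also acts as a decoy, differed by -0.25 ± 0.10 (adjusted p = 0.277) in F1, and Nrp2, the coreceptor of lymphatic and venous endothelium, by -0.13 ± 0.12 (adjusted p = 0.661) in F1 and 0.22 ± 0.09 (adjusted p = 0.255) in F0.

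Angpt1, the activating ligand of Tek, was at 42.8 and 51.7 CPM in the F0 CD mice, 37.5 and 33.4 in the F0 LPD mice, 26.4, 42.6 and 24.7 in the F1 CD mice and 29.7, 32.2 and 37.4 in the F1 pLPD mice. It was the 1 gene of the 34 above 0 in F1, with overlapping groups (log2 fold change 0.08 ± 0.19, adjusted p = 0.878), and in F0 both LPD mice were lower (log2 fold change -0.41 ± 0.12, adjusted p = 0.117). With all mice kept, its call between the CD groups (-0.59 ± 0.19) held in 6 of 8 alternative settings. Angpt2, its antagonist, was at 10.8 and 7.18 CPM in the F0 CD mice, 8.08 and 8.76 in the F0 LPD mice, 9.16, 8.67 and 7.92 in the F1 CD mice and 7.19, 8.67 and 6.69 in the F1 pLPD mice. Its diet groups overlapped in both generations, and only 32.4% of its exon reads matched uniquely, the gene lying within Mcph1. Tek, the angiopoietin receptor, was at 62.4 and 58.7 CPM in the F0 CD mice, 50.7 and 50.3 in the F0 LPD mice, 53.6, 64.4 and 52.5 in the F1 CD mice and 42.0, 42.0 and 46.8 in the F1 pLPD mice. All LPD or pLPD mice were below the CD mice of their generation (F1 -0.37 ± 0.11, adjusted p = 0.124; F0 -0.26 ± 0.09, adjusted p = 0.173). Tie1, the partner receptor of Tek, was at 30.8 and 25.5 CPM in the F0 CD mice, 28.9 and 28.7 in the F0 LPD mice, 62.0, 67.6 and 46.6 in the F1 CD mice and 49.8, 50.0 and 35.8 in the F1 pLPD mice, higher in F1 CD than in F0 CD by 1.06 ± 0.17 (adjusted p = 0.00112), with overlapping diet groups in F1 (-0.37 ± 0.16, adjusted p = 0.299).

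All 4 arteriovenous genes were higher in F1 CD than in F0 CD. Dll4, the Notch ligand of arterial and tip cells, was at 12.9 and 10.8 CPM in the F0 CD mice, 11.6 and 15.3 in the F0 LPD mice, 19.0, 28.5 and 20.5 in the F1 CD mice and 17.3, 12.7 and 13.7 in the F1 pLPD mice. The second F1 CD mouse was the highest of the 10, and without overlap all pLPD mice lay below the CD mice (log2 fold change -0.64 ± 0.18, adjusted p = 0.124). In F0 the fold change was 0.19 ± 0.19 (adjusted p = 0.712), and the F1 effect minus the F0 effect was -0.84 ± 0.29 (adjusted p = 0.223). Efnb2, the arterial ephrin ligand, was at 16.1 and 11.2 CPM in the F0 CD mice, 14.9 and 14.6 in the F0 LPD mice, 27.6, 27.4 and 18.4 in the F1 CD mice and 15.6, 17.6 and 17.9 in the F1 pLPD mice, again with pLPD below CD in F1 (log2 fold change -0.51 ± 0.17, adjusted p = 0.169). Ephb4, its venous receptor, was at 41.1 and 39.6 CPM in the F0 CD mice, 38.2 and 34.9 in the F0 LPD mice, 46.3, 58.6 and 55.8 in the F1 CD mice and 56.1, 49.6 and 43.4 in the F1 pLPD mice, and its F1 groups overlapped (log2 fold change -0.10 ± 0.12, adjusted p = 0.753). Notch4, the endothelial Notch receptor, was at 28.9 and 24.5 CPM in the F0 CD mice, 23.6 and 28.1 in the F0 LPD mice, 36.5, 44.0 and 36.9 in the F1 CD mice and 36.8, 35.2 and 32.8 in the F1 pLPD mice and differed by -0.16 ± 0.11 (adjusted p = 0.555) in F1. Between the CD groups the differences were 0.95 for Dll4, 0.85 for Efnb2, 0.55 for Notch4 and 0.41 for Ephb4, with adjusted p-values from 0.00647 to 0.0362. With all mice kept, these calls held in 8 of 8 alternative settings for Dll4 and 7 of 8 for Efnb2. For Notch4 and for Ephb4 they held in 6 of 8, with adjusted p-values up to 0.102 and 0.209.

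The 3 lymphatic genes were all below 0 in both diet comparisons. Mmrn1, a matrix protein of lymphatic endothelium, was at 7.94 and 10.2 CPM in the F0 CD mice, 4.41 and 3.62 in the F0 LPD mice, 3.10, 4.97 and 3.62 in the F1 CD mice and 3.67, 1.62 and 1.40 in the F1 pLPD mice. It fell in F0 to 0.44 times the CD level (log2 fold change -1.17 ± 0.24, adjusted p = 0.0435). Of 9 alternative settings with all mice kept, 6 kept this call (adjusted p-values up to 0.164). The call was lost with DESeq2 (adjusted p = 0.0653) and without the second F0 CD mouse (0.205), the first F0 LPD mouse (0.0693) or the second (0.196). In F1 the second and the third pLPD mice were below every CD mouse and the first was not, at 9 to 24 exon reads per pLPD library (log2 fold change -0.80 ± 0.40, adjusted p = 0.379). Prox1, the transcription factor that specifies lymphatic identity, was at 9.61 and 9.87 CPM in the F0 CD mice, 9.65 and 6.54 in the F0 LPD mice, 8.49, 8.09 and 10.5 in the F1 CD mice and 4.59, 6.50 and 5.29 in the F1 pLPD mice, with every pLPD mouse below every F1 CD mouse (log2 fold change -0.70 ± 0.23, adjusted p = 0.168). In F0 the second LPD mouse was low and the first was not (-0.26 ± 0.22, adjusted p = 0.649). Pdpn, a surface protein of lymphatic endothelium that stromal cells also carry, was at 15.3 and 19.5 CPM in the F0 CD mice, 14.7 and 14.1 in the F0 LPD mice, 10.9, 12.8 and 10.2 in the F1 CD mice and 7.64, 11.1 and 13.9 in the F1 pLPD mice, with overlapping F1 groups (log2 fold change -0.05 ± 0.22, adjusted p = 0.94). Mmrn1 and Pdpn were lower in F1 CD than in F0 CD, with log2 fold changes of -1.21 ± 0.32 (adjusted p = 0.021) and -0.62 ± 0.20 (adjusted p = 0.0487). With all mice kept, these calls held in 6 of 7 alternative settings for Mmrn1 and 6 of 8 for Pdpn. The Pdpn call was lost without most single F1 mice.

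Other genes of these pathways had mixed directions. Of 32 further endothelial genes, 22 were below 0 in F1 with a median of -0.18, and Mmrn2, a matrix protein of blood endothelium, fell from 45.8, 50.4 and 45.9 to 33.6, 35.2 and 30.0 CPM (log2 fold change -0.51 ± 0.10, adjusted p = 0.0448). In F0, 3 of the 32 fell: Thbd, the thrombin receptor of endothelium (-0.89 ± 0.12, adjusted p = 0.011), Procr, the protein C receptor (-0.72 ± 0.14, adjusted p = 0.0351), and Podxl, a sialomucin (-0.47 ± 0.09, adjusted p = 0.0407). With all mice kept, the call of Thbd held in 9 of 9 alternative settings, that of Procr in 6 of 9 and that of Podxl in 5 of 9. These calls rest on 2 mice per group. With 1 F0 mouse left out, 1 mouse remained in a group. The log2 fold changes were then -1.06 to -0.75 for Thbd, -0.87 to -0.54 for Procr and -0.50 to -0.44 for Podxl. Of 12 further lymphatic genes tested in F1, 6 were lower and 6 higher with a median of -0.01. In either generation 0 were called. At an unadjusted p under 0.05, 2 of 12 were lower and 0 higher in F1, beside 8.76% and 6.57% of all genes. In F0, 4 of 13 were lower and 1 higher, beside 8.2% and 7.53%.

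Of 22 further VEGF, angiogenesis and hypoxia genes tested, 15 were below 0 in F1 and Pdgfb, the endothelial signal that recruits pericytes, fell (log2 fold change -0.55 ± 0.11, adjusted p = 0.0399). The calls of Mmrn2 and Pdgfb were kept without the third F1 CD mouse and lost without any other F1 mouse (adjusted p-values from 0.0586 to 0.206). In F0, Thbs1, an inhibitor of angiogenesis, rose from 21.9 and 21.3 to 47.2 and 73.9 CPM (log2 fold change 1.48 ± 0.19, adjusted p = 0.011). Angptl4, an inhibitor of lipoprotein lipase, rose there from 163 and 165 to 273 and 392 CPM (1.02 ± 0.15, adjusted p = 0.0179), and the chemokine Cxcl12 fell (-0.43 ± 0.08, adjusted p = 0.0401). With all mice kept, the F0 calls held in 8 of 9 alternative settings for Thbs1, 7 of 9 for Angptl4 and 6 of 9 for Cxcl12. These calls, too, rest on 2 mice per group. With 1 F0 mouse left out, 1 mouse remained in a group. The log2 fold changes were then 1.13 to 1.77 for Thbs1, 0.74 to 1.25 for Angptl4 and -0.45 to -0.41 for Cxcl12. Thbs1 was 18.6, 21.1 and 21.3 CPM in the F1 CD mice and 15.4, 13.0 and 16.3 in the F1 pLPD mice, and its diet effects differed between the generations (-1.94 ± 0.25, adjusted p = 0.00582). Of the further Notch and ephrin genes, 0 were called in either diet comparison. At an unadjusted p under 0.05, 5 of 15 were lower and 1 higher in F1, beside 8.76% and 6.57% of all genes. In F0, 1 of 16 was lower and 2 higher, beside 8.2% and 7.53%. Efnb1, an ephrin ligand, passed the test of the difference between generations (-0.98 ± 0.21, adjusted p = 0.046). With all mice kept, this call held in 6 of 8 alternative settings (adjusted p-values up to 0.0709). It was lost without most single F1 mice. Without a single F0 mouse, which left 1 mouse in a group, the call is not given. With any 1 of the 10 mice left out, the difference lay between -1.11 and -0.84. Between the CD groups, 7 of the 32 endothelial, 2 of 13 lymphatic, 9 of 22 angiogenesis and 4 of 16 Notch and ephrin genes were called, in both directions, where 18.9% of all genes were. Those with the smallest p-values were, by log2 fold change, the endothelial genes Ushbp1 (0.91), Thbd (-1.02), Cd93 (1.01) and Rasip1 (0.68), the lymphatic genes Gja1 (1.29) and Ccbe1 (-1.997), the angiogenesis genes Fgf2 (-1.52), Ndrg1 (-0.91), Pdgfb (0.96) and Apln, the ligand of Aplnr (1.69), and the Notch and ephrin genes Efnb1 (1.34), Jag2 (0.76), Jag1 (-0.39) and Hey1 (0.93).

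Markers of other cell types also differed. In F1, all 9 macrophage markers measured were lower in pLPD and 5 were called, with Csf1r (-0.54), Adgre1 (-0.64), Cd163 (-0.70) and Lyz2 (-0.51) having the smallest p-values and summed levels of 999 to 1224 CPM in CD and 703 to 802 in pLPD. Of 12 mural cell markers 9 were lower and Acta2 was called, with sums of 795 to 933 and 754 to 888 CPM. All 12 B and T cell markers were above 0 with 0 called and 5 at an unadjusted p under 0.05 (601 to 715 and 647 to 858 CPM), and 8 of 12 adipocyte markers were higher with 0 called (20035 to 23969 and 21756 to 26872 CPM). Of 5 genes tested as markers of high endothelial venules, the vessels of lymph nodes, 3 were higher and 2 lower in pLPD with 0 called. Enpp2 (0.29, adjusted p = 0.139) had an unadjusted p under 0.05, and the sums were 316 to 328 and 354 to 401 CPM, without overlap. This sum mainly followed Enpp2: between the CD groups it was lower in F1, as was Enpp2 (-0.74), although Glycam1 was higher (1.60). Whether the Enpp2 reads came from these venules was not tested. All 6 erythroid markers were lower in pLPD with 0 called and Slc4a1 (-0.97, adjusted p = 0.297) at an unadjusted p under 0.05 (660.3 to 1507 and 711 to 976 CPM). In F0, 15 of 15 skeletal muscle markers were lower with LPD and 9 were called, with Myh7 (-5.65), Myh1 (-2.54), Myh2 (-3.85) and Mb (-2.63) having the smallest p-values (1944 to 3040 and 921 to 1281 CPM), 10 of 12 mural markers were lower with Myh11 called (919.8 to 969 and 813 to 818 CPM), and 6 of 6 markers of high endothelial venules were lower with 0 called (427 to 446 and 399.8 to 402 CPM). All 6 erythroid markers were higher in F0 LPD and Slc4a1 (3.08) was called (892 to 1485 and 1519 to 2002 CPM). In F0 LPD, 9 of 12 B and T cell markers were above 0 and 3 below, and the B cell gene Ms4a1 (0.46) was called. Of 9 macrophage markers tested there, 4 were above 0 and 5 below, and Cd163 (-0.47) was called. Of 12 adipocyte markers, 9 were above 0 and 3 below, and the 1 called, Retn (-0.78), was among the 3. No marker list had a gene at 0 reads in all 10 libraries, and the part of these cells in the endothelial results was not tested.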

How the data were processed

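RNA was prepared from iWAT with rRNA depletion and a strand-marking kit and sequenced in read pairs. The authors aligned reads to mm10 using CLC Genomics Workbench and deposited, per gene and library, counts of exon and intron reads and RPKM values, in which exon reads are divided by exon length and library total. Whether counting used strand is not given in the sources used here, so reads of overlapping genes on opposite strands cannot be told apart. Columns of each file were taken for the sample it was deposited with.

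Total exon counts were tested with edgeR 4.0.16 in R 4.3.3 (filterByExpr, TMM, quasi-likelihood F test, two-sided), and an adjusted p-value (Benjamini-Hochberg, all genes tested) under 0.05 was called. F1 (3 against 3) and F0 (2 against 2) were fitted apart, and the difference between the diet effects and that between the CD groups came from a fit of all 10 libraries. The SE is the log2 fold change divided by the square root of F. Replicates were separate mice, and no replicate pair agreed within counting noise. An exact permutation test of 1 gene could not give less than 0.1 in F1 or 0.333 in F0 and was not used. The deposited RPKM served for levels between genes and, as log2(RPKM + 0.1), for limma 3.58.1. DESeq2 1.42.0 was a further alternative. The fits were tested on simulated data. Coordinates and promoters are from RefSeq, GRCm38.p6, the same build as mm10, and overlapping genes from GENCODE.

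The 34 genes and all other lists were chosen with earlier results of these data known. All 34 may be named. Values in every mouse are given for genes past the threshold in any comparison, for the 5 smallest p-values in the F1, F0 and generation-by-diet comparisons, and for the VEGF, angiopoietin and lymphatic members. Of other lists, genes past the threshold are named, at most 4 per list and comparison. The result of 1 marker list is not reported here.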

Additional observations from a re-analysis of the deposited data

Results flagged for a closer look

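The diet effect differed between the generations, by the interaction of generation and diet in edgeR (Benjamini-Hochberg), for 3 genes of the vascular lists. For Robo4 the difference (F1 effect minus F0 effect, log2) was -0.74 (adjusted p = 0.0499), with effects of -0.49 in F1 and 0.24 in F0. For Thbs1 it was -1.94 (adjusted p = 0.00582), with effects of -0.44 and 1.48, the F0 increase being seen in both LPD mice. For Efnb1 it was -0.98 (adjusted p = 0.0460), with effects of -0.58 and 0.39. With all mice kept, the call held in 8 of 8 alternative settings for Thbs1, 6 of 8 for Efnb1 and 4 of 8 for Robo4. The calls of Efnb1 and Robo4 were lost without most single F1 mice.

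Among markers of other cell types, the same difference was 4.01 for Myh2 and 7.10 for Myh7 (skeletal muscle), -0.70 for Adgre1 (macrophage), 1.01 for Retn and 1.13 for Cfd (adipocyte), and -4.06 for Slc4a1 (erythroid), with adjusted p-values from 0.0229 to 0.0454.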

How the results depend on the processing

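Of 722 alternative values of named genes, 562 kept their direction and their side of the threshold, 132 lost the threshold, 28 gained it and 0 changed sign. In F1 the number of the 34 genes called was 3 with DESeq2 and with all 4 groups in 1 fit, 2 with DESeq2 size factors or with at least 10 reads in every library, 9 without a filter on low counts, 1 with uniquely matching reads and 1 with exon and intron reads, and 0 to 5 when 1 mouse was left out. Over all genes it was 375 with DESeq2, 798 without a filter, 339 with all 4 groups, 11 with the exon share as a covariate and 18 to 510 with 1 mouse left out, beside 164. The F1 median was -0.41 in limma on log2 RPKM, where the median of all genes was -0.15, and -0.35 to -0.22 with 1 mouse left out. In F0 the calls among the 34 were 6 without a filter and 0 with DESeq2, limma or all 4 groups, 0 to 1 with 1 mouse left out, and the all-gene counts were 1343, 82 (limma), 175 (all 4 groups) and 107 to 475, beside 364. The F0 median ran from -0.099 to 0.055 with 1 mouse left out, the latter without the first CD mouse. For the difference between generations the calls among the 34 were 5 without a filter, 0 with limma or DESeq2 size factors and 0 to 2 with 1 mouse left out, and over all genes 353 (DESeq2), 890 (no filter), 74 (limma) and 19 to 395, beside 189. Between the CD groups limma called 9 of the 34, and leaving out 1 mouse gave 4 to 20 of the 34 and 793 to 3030 of all genes. The causes were not tested. Limits are the 2 or 3 mice per group and, for Vegfc and Mmrn1, few reads.

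Same-numbered mice did not deviate together (correlations of 0.074, 0.0091 and 0.015 in F1 and 0.056 in F0), so the numbers were not taken as pairs. With the replicate number as a block, 260 genes and 0 of the 34 were called in F1, 1391 and 6 in F0, where 1 residual degree of freedom was left, and 0 of the 34 in the difference between generations.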

Other observations

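Of the markers of mural cells, which wrap the endothelium, the smooth muscle actin gene Acta2 fell in the pLPD mice (log2 fold change -0.74 ± 0.13 SE, adjusted p = 0.0276), and the smooth muscle myosin Myh11 fell in the F0 LPD mice (-0.65 ± 0.10 SE, adjusted p = 0.0164). In F1 the 3 of 12 mural markers above 0 were Rgs5, Cspg4 and Abcc9 (log2 fold changes of 0.22, 0.03 and 0.02), which did not pass the test. The other 9 were below 0, among them Pdgfrb (-0.19), Kcnj8 (-0.16), Higd1b (-0.26) and Notch3 (-0.30), which did not pass either. These were chosen after their values were seen, and which cells the reads came from was not tested. Acta2 (-1.02), Myh11 (-0.98) and Tagln (-0.62) were lower in F1 CD than in F0 CD and the channel gene Kcnj8 (0.86) was higher, all past the threshold in edgeR.

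Of further marker lists, 9 of 10 fibroblast and progenitor genes were below 0 in F1. Of these 10 genes, 0 were called and 5 had an unadjusted p under 0.05. In F0, 6 of the 10 were below 0 and 4 above, and Dcn (-0.62) was called. Of 4 epithelial genes tested in F1 all were lower and 2 fell, Krt18 (-4.84) and Krt8 (-3.82), with summed levels of 10.5 to 14.9 CPM in F1 CD and 1.53 to 4.87 CPM in pLPD. The summed fibroblast level was 14198 to 23671 CPM in F1 CD, 10319 to 12969 CPM in pLPD and 3506 to 4372 CPM in the F0 mice.

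Between the CD groups, the marker genes with the smallest p-values among those past the threshold were, by log2 fold change (F1 CD minus F0 CD), Myh2 (-6.74), Mb (-5.36), Tnnt3 (-4.34) and Pvalb (-3.23) of skeletal muscle, Lipe (-0.60), Adipoq (-0.69), Retn (-0.64) and Plin1 (-0.39) of adipocytes, Col1a1 (3.27), Col3a1 (2.78), Dcn (-0.82) and Lum (0.49) of fibroblasts, Enpp2 (-0.74) and Glycam1 (1.60) of high endothelial venules, Cr2 (-0.57) and Cd3d (0.71) of lymphocytes, Krt8 (2.63) and Krt18 (2.50) of epithelium, and Slc4a1 (2.89) of erythroid cells.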
